A study of Mus musculus with 48 samples.

Results

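The 35 genes described here encode the glucose transporters, the enzymes of glycolysis, the enzymes and carriers of lactate, the pyruvate dehydrogenase kinases and the enzymes of glycogen storage. They were chosen by symbol, and all 35 are among the 24421 gene symbols of each deposited table. In mice of 4 ages, with 2 genotypes at the oldest, RNA labelled as astrocyte RNA from cortex, hippocampus and the olfactory bulb was sequenced in bulk in 48 libraries. Cortex at postnatal day 1 (P1), P7 and P14 had 3, 3 and 4 libraries, and hippocampus and the olfactory bulb had 3 libraries at each of these ages, with no genotype or treatment label. At P28, Gabbr1 control and Gabbr1 cKO (conditional knockout of the GABA-B receptor subunit gene) animals gave 4 and 4 cortex, 2 and 4 hippocampus and 3 and 3 olfactory bulb libraries. Tamoxifen, the drug that activates inducible Cre recombinases, is labelled for both genotypes in hippocampus and the olfactory bulb and for 3 of the 8 P28 cortex libraries. The sources used here give neither the Cre driver nor the way the cells were isolated, nor whether libraries came from separate animals, so p-values measure only the spread between these libraries, which may be technical.

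Glycolysis breaks glucose down to pyruvate in the cytosol. Lactate dehydrogenase interconverts pyruvate and lactate, monocarboxylate carriers move lactate across membranes, and the pyruvate dehydrogenase kinases hold back the entry of pyruvate into mitochondria. In the adult brain glycogen is found mainly in astrocytes, and astrocytes are known for high glycolysis and for the release of lactate. Several steps have isoforms that differ between cell types, such as aldolase C in astrocytes, the glucose transporter GLUT3 (Slc2a3) and enolase 2 in neurons, and the glucose transporter GLUT1 (Slc2a1) in endothelial cells and astrocytes.

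Promoters of 5 members with large rises during development are printed to show the sequence just before the start of each gene. Each is the 250 bases before the most upstream start that RefSeq lists, on GRCm38.p6, 5′ to 3′ on the gene's strand, and capitals mark ACGTG read on either strand, the core letters that the hypoxia-inducible factors recognise. Aldoc encodes aldolase C (chr11:78322823-78323072, plus strand), and its window held no match. Pdk2 encodes a pyruvate dehydrogenase kinase (chr11:95041372-95041621, minus strand). Pygm encodes the muscle isoform of glycogen phosphorylase (chr19:6384158-6384407, plus strand). Ppp1r3c (chr19:36736605-36736854, minus strand) and Ppp1r3d (chr2:178414464-178414713, minus strand) encode subunits that bring protein phosphatase 1 to glycogen.
Aldoc: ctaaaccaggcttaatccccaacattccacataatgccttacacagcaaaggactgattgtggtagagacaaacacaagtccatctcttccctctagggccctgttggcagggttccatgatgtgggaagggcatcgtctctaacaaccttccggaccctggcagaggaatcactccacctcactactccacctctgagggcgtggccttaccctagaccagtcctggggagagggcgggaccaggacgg
Pdk2: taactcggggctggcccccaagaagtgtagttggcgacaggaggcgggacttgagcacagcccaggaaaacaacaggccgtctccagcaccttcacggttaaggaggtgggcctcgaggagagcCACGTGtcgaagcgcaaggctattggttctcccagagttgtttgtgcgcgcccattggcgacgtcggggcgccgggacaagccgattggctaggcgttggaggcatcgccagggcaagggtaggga
Pygm: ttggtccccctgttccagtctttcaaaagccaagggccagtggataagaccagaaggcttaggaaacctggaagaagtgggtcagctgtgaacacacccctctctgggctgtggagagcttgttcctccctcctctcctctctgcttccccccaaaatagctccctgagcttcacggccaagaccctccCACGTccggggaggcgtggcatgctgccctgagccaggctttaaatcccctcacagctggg
Ppp1r3c: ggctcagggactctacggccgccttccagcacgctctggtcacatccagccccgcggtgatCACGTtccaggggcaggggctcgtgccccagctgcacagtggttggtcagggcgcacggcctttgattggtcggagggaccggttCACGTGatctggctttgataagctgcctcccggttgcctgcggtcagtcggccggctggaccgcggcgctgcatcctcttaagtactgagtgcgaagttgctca
Ppp1r3d: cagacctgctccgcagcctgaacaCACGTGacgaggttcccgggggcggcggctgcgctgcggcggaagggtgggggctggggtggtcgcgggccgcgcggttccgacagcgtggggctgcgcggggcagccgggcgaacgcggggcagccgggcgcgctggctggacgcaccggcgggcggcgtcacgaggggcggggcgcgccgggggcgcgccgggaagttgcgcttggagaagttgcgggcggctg

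Of the 35 members, 33 had such a window in the RefSeq table. ACGTG was in 16 of the 33 windows (48.5%) and in 17.6% of the windows of 17492 protein-coding genes. Its palindrome CACGTG counts once on each strand. The window of Ldha, lactate dehydrogenase A, held 5 matches, the most of any member. The GC box letters GGGCGG were in 17 windows (51.5%, against 42.7% of all) and the letters TATAAA in 1 (3.03%, against 12.4%), that of Eno2, both strands searched. The median GC content was 60.0% for members and 55.2% for all, so windows of members also differ in base composition. These matches describe letters and are neither binding sites nor a cause of any change below.

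Values are the authors' normalized reads, which are gene reads divided by one factor per library, so levels are set side by side only within a region's table. Libraries held 1773226 to 15008466 reads. Differences are in log2(normalized reads + 1) and were tested with limma in one fit per region, with p-values adjusted by Benjamini-Hochberg over all genes that had a mean of at least 10. A gene was called at an adjusted p under 0.05. This filter passed 33 members in cortex, 33 in hippocampus and 32 in the olfactory bulb over P1 to P14. Eno1 and Slc16a3 did not pass in any region, and Hk2 did not pass in the olfactory bulb.

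Most members rose between P1 and P14. In cortex 22 of 33 tested members had risen by P14 and 3 had fallen, while 24.0% of the 11822 genes tested were higher and 40.3% were lower. In hippocampus 23 of 33 members were higher and 5 lower, against 21.0% and 28.5% of all genes. Of the 32 members tested in the olfactory bulb, 26 were higher and 1 lower, against 24.8% and 31.4% of all genes. The median member changed by 1.08 in cortex, 1.37 in hippocampus and 1.60 in the olfactory bulb, while the median of all genes was -0.27, -0.29 and -0.24. With TMM scaling the cortex median of all genes moved to 0.0050, and 3801 genes were higher and 3655 lower in place of 2843 and 4765, with 24 members higher and 3 lower. In hippocampus and the olfactory bulb the median of all genes with TMM scaling stayed below 0, at -0.26 and -0.24.

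Rises were shared between regions. Of the 32 members tested in all 3 regions, 19 were higher at P14 in each: Slc2a1, Gpi1, Pfkl, Pfkm, Aldoa, Aldoc, Tpi1, Gapdh, Pgk1, Pgam1, Pkm, Ldhb, Pdk2, Pdk4, Gys1, Pygb, Pygm, Ppp1r3c and Ppp1r3d. Of these, 5 were at least 4-fold higher in every region, namely Pfkm, Aldoc, Pdk2, Pygm and Ppp1r3d. The share of all genes higher in all 3 regions is not given here. How far this sharing is particular to the members therefore cannot be told. Slc2a3 was lower in every region. Pfkfb3 and Pygl were lower in hippocampus and higher in the olfactory bulb, though both hippocampal calls were lost in some alternative runs. Hk2, Pfkfb2 and Pdk3 were called in no region.

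**Figure D1:**
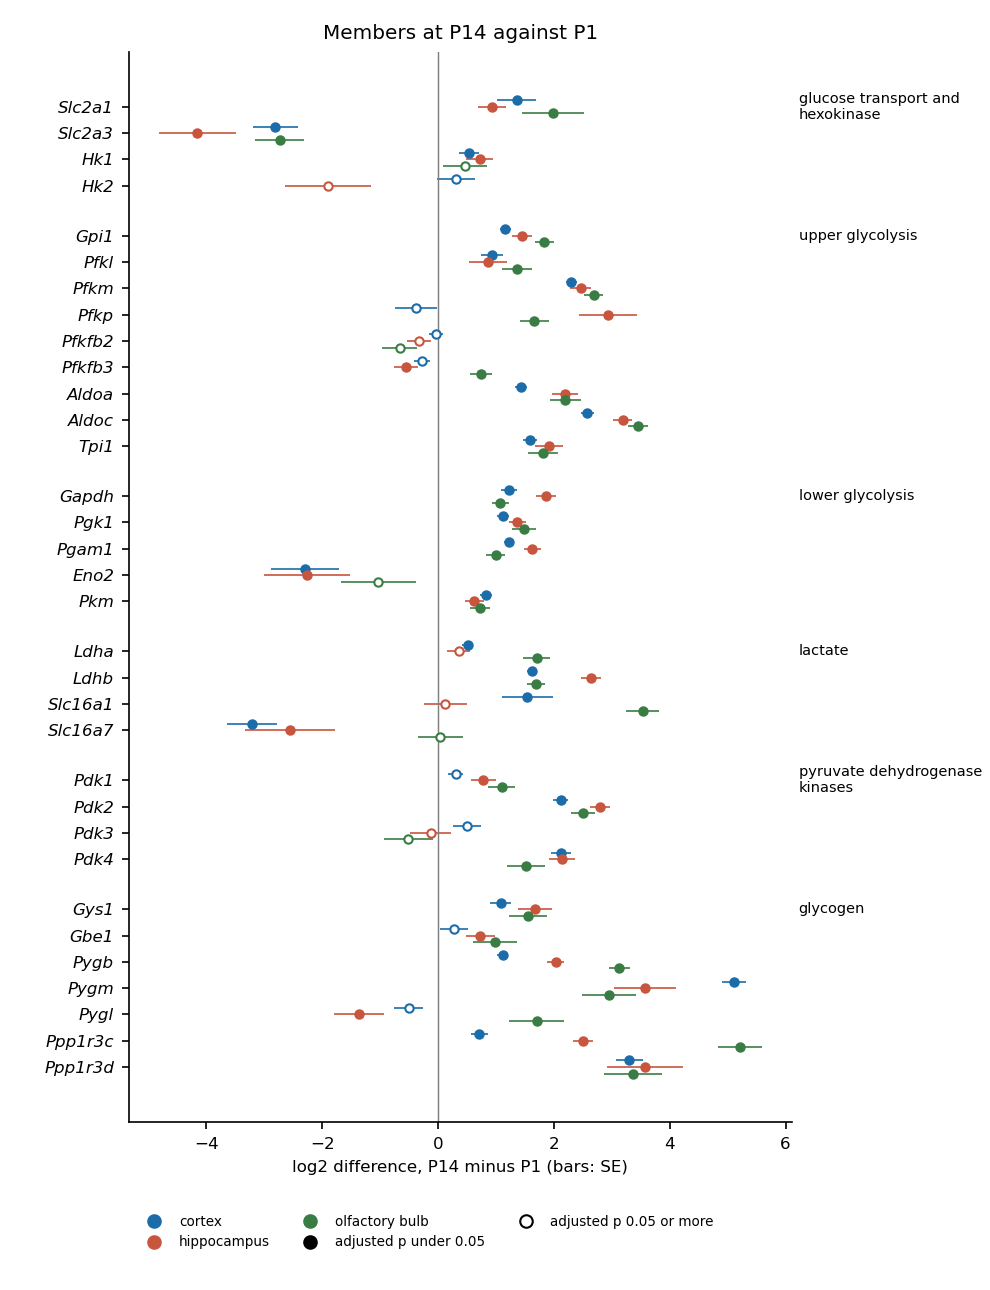
Log2 difference between P14 and P1 (horizontal axis) for each tested member, grouped by role, with 1 point per region and bars of 1 SE; filled points passed an adjusted p of 0.05. Most points lie to the right of 0, while Slc2a3, Eno2 and, in cortex and hippocampus, Slc16a7 lie to the left.

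More members were called between P7 and P14 than between P1 and P7. From P1 to P7 limma called 13 members higher and 1 lower in cortex (15.6% and 18.1% of all genes), 14 higher and 0 lower in hippocampus (11.2% and 6.92%), and 4 higher and 0 lower in the olfactory bulb (7.59% and 2.98%). From P7 to P14, 20 members were higher and 4 lower in cortex (18.6% and 31.3% of all genes), 17 and 5 in hippocampus (12.5% and 17.7%), and 22 and 3 in the olfactory bulb (20.4% and 26.6%). Without cortex P7 replicate 2 the cortex count from P1 to P7 was 9 in all, and with DESeq2 that of the olfactory bulb was 8. Pfkm, Pygb and Ppp1r3c were called higher in every region from P1 to P7. From P7 to P14, 15 members were called higher in every region, and Pygm was the 1 member at least 4-fold higher in all 3. In hippocampus and the olfactory bulb Pygm passed the filter only through its P14 values. For these counts too, the share of all genes higher in every region is not given here. The median member changed by 0.31, 0.54 and 0.41 in the first step and by 0.64, 0.69 and 1.198 in the second, in the order cortex, hippocampus, olfactory bulb. The 3 comparisons of a region share libraries.

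The make-up of the libraries changed over the same ages. Summed normalized reads of 12 astrocyte markers went from 21168 to 28082 at P1 to 504708 to 563452 at P14 in cortex, from 13209 to 15527 to 433869 to 468014 in hippocampus and from 5401 to 7485 to 142480.0 to 158054 in the olfactory bulb. Limma called 11, 12 and 12 of these markers higher, and none was at 0 in a whole group. The sum of 12 neuron markers went from 7929.7 to 11191 to 288 to 547 in cortex, from 7141 to 9176 to 447 to 673 in hippocampus and from 15619 to 18900.3 to 2016 to 3188 in the olfactory bulb. In each P1 olfactory bulb library the neuron sum exceeded the astrocyte sum. Limma called 10, 10 and 9 of the 12 neuron markers lower at P14 in cortex, hippocampus and the olfactory bulb, and 1 higher in the olfactory bulb, where Neurod6 was at 0 in all P14 libraries. The sum of 8 mature oligodendrocyte markers went from 336 to 394 to 15297 to 26088 in cortex. It also rose in hippocampus, from 76.9 to 93.6 to 1603 to 2312, and in the olfactory bulb, from 103 to 201 to 1933 to 2242. The sum of 10 microglia markers went from 415 to 704 to 1375 to 3142 in cortex. In hippocampus the microglia sum went from 99.8 to 147 to 243 to 662, and in the olfactory bulb from 44.7 to 62.4 to 294 to 478. In hippocampus the sum of 5 choroid plexus and ependymal markers went from 53.01 to 83.7 to 3995 to 8233. The part of these shifts in the changes of the members was not tested, and in bulk RNA fewer cells of a type cannot be told apart from less RNA per cell.

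Glucose enters cells through facilitative transporters and is trapped by hexokinase. Slc2a1, which encodes GLUT1, was at 69.9, 194 and 211 at P1, then 277, 210.3 and 196 at P7 and then 361, 279, 584 and 301 at P14 in cortex, in normalized reads by library. In hippocampus it was at 119, 88.2 and 72.5 at P1, then 197, 155 and 135 at P7 and then 163, 201 and 163 at P14. In the olfactory bulb it was at 33.3, 64.3 and 54.6 at P1, then 36.9, 42.2 and 44.5 at P7 and then 67.6, 288 and 389 at P14. P14 libraries lay above P1 libraries in every region, although in the olfactory bulb the lowest P14 value was close to the highest P1 value. The log2 differences between P14 and P1 were 1.36 (SE 0.33, adjusted p = 0.00285) in cortex, 0.93 (SE 0.24, adjusted p = 0.00738) in hippocampus and 1.98 (SE 0.54, adjusted p = 0.00867) in the olfactory bulb. Without P1 replicate 1 the cortex difference was 0.85. The sum of 8 endothelial and mural markers was 338, 1625 and 1963 in the same 3 P14 olfactory bulb libraries and 57.4, 92.5 and 92.7 at P1. It was 101, 477 and 746 in the P1 cortex libraries, in the same order as Slc2a1. Cortex sums were 725, 662 and 586 at P7 and 365, 306, 1127 and 351 at P14, again in the order of Slc2a1. In the olfactory bulb, where the P7 sums were 273, 286 and 263, the order matched that of Slc2a1 at P14 only. In the olfactory bulb all 8 of these markers were called higher at P14, in cortex 1 of 8, and in hippocampus 2 were called lower. In hippocampus the endothelial and mural sum was 259, 197 and 166 at P1, then 1039, 717 and 623 at P7 and then 129, 149 and 229 at P14. The order of the libraries was that of Slc2a1 at P1 and P7 and not at P14. The part of these cells in the Slc2a1 result was not tested in any region.

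Slc2a3, which encodes GLUT3, the main glucose transporter of neurons, moved the other way. It was at 56.8, 35.5 and 40.03 at P1, then 24.8, 19.3 and 35.8 at P7 and then 9.46, 2.52, 5.99 and 5.19 at P14 in cortex. Hippocampal libraries were at 45.2, 38.8 and 40.5 at P1, then 21.1, 32.5 and 41.6 at P7 and then 0, 1.10 and 5.37 at P14. Olfactory bulb libraries were at 30.1, 31.7 and 41.9 at P1, then 92.8, 57.9 and 46.9 at P7 and then 3.98, 6.89 and 2.78 at P14. No P14 library reached a P1 library in any region. The differences were -2.81 (SE 0.39, adjusted p = 2.95e-05), -4.16 (SE 0.66, adjusted p = 0.000304) and -2.73 (SE 0.42, adjusted p = 0.000238) in cortex, hippocampus and the olfactory bulb. The P7 libraries of the olfactory bulb were all above the P1 libraries, though this difference of 0.87 was not called (adjusted p = 0.243). The neuron marker sum was lower at P14 too, and its part was not tested.

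**Figure D2:**
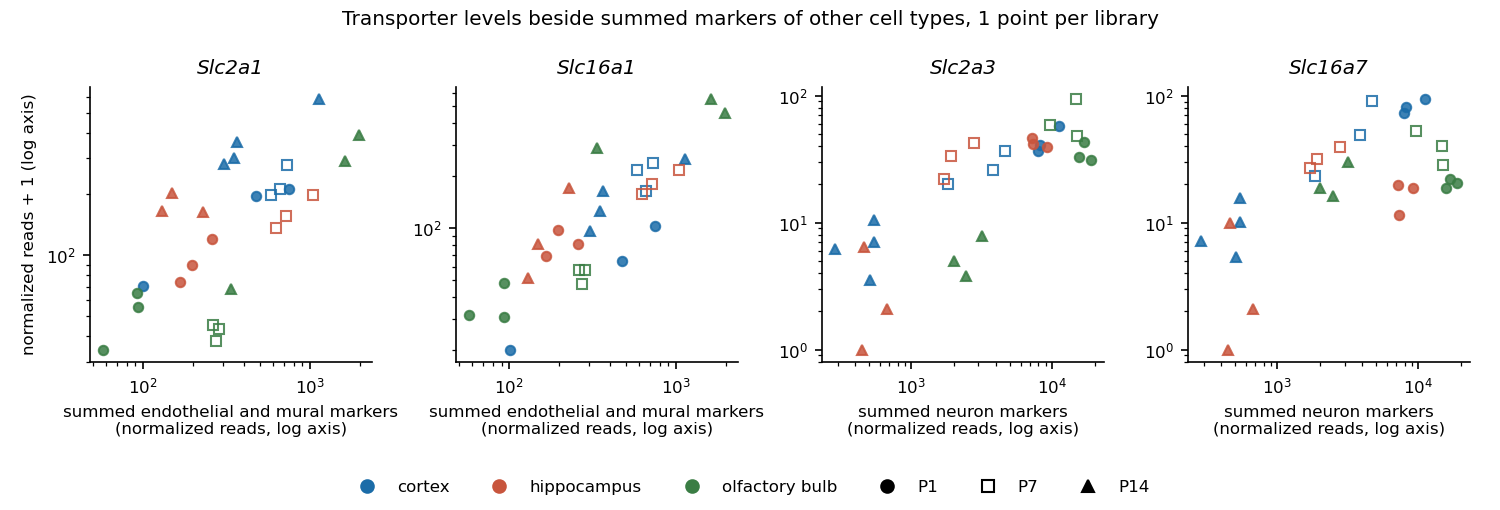
Normalized reads of 4 carriers (vertical, log axis, plus 1) against summed markers of endothelial and mural cells or of neurons (horizontal, log axis), 1 point per library at P1, P7 and P14. In the olfactory bulb P14 libraries have more endothelial and mural reads and more Slc2a1 and Slc16a1 RNA than P1 libraries, and in each region P14 libraries have fewer neuron reads and less Slc2a3 RNA than P1 libraries.

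Hexokinase 1 (Hk1) is the main hexokinase of brain. It was at 163, 129.7 and 125 at P1 and 180.1, 228, 199 and 196 at P14 in cortex, 98.3, 115 and 87.2 at P1 and 199, 123 and 181 at P14 in hippocampus and 103, 73.98 and 86.6 at P1 and 181, 56.5 and 171 at P14 in the olfactory bulb. It was called higher in cortex (0.53, adjusted p = 0.0161) and hippocampus (0.72, adjusted p = 0.0259), and in the olfactory bulb the groups overlapped. The calls were lost without P1 replicate 2 or 3 in cortex (adjusted p = 0.0576 and 0.0656 by limma), as without both P14 libraries with reads of the Y-linked Ddx3y (0.0575), and without P1 replicate 1 or 3 or P14 replicate 1 or 3 in hippocampus (adjusted p = 0.0553 to 0.0966 by limma), and without the low P14 replicate 2 the olfactory bulb difference was 1.006 (adjusted p = 0.0016 by limma). Hk2, the isoform known for muscle and dividing cells, was at 20.5, 31.2 and 30.5 at P1 and 23.8, 40.9, 27.4 and 47.8 at P14 in cortex and at 26.00, 32.5 and 18.4 at P1 and 10.7, 1.10 and 12.5 at P14 in hippocampus. Its hippocampal libraries did not overlap, but the difference of -1.91 missed the threshold (adjusted p = 0.0503) and passed it without P14 replicate 1 (-2.29) or 3 (-2.39). No olfactory bulb library of P1 to P14 had more than 11.1 normalized reads of Hk2.

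Upper glycolysis, from glucose 6-phosphate to the triose phosphates, rose in large part. Of its 9 members, 6 rose from P1 to P14 in cortex, 7 in hippocampus and 8 in the olfactory bulb, and 1, Pfkfb3 in hippocampus, fell. The shares of all genes were 24.0%, 21.0% and 24.8% higher and 40.3%, 28.5% and 31.4% lower, in the same order. Aldoc, the aldolase long used as an astrocyte marker, was at 2931, 3611 and 3627 at P1, then 4070.2, 4259 and 3389 at P7 and then 22277, 20639.9, 17910.2 and 19952 at P14 in cortex. The hippocampal values were 1572, 1723 and 1463 at P1, then 2942, 3339 and 4794 at P7 and then 14176, 13304 and 15960.5 at P14. The olfactory bulb values were 438, 565 and 507 at P1, then 746, 795 and 486 at P7 and then 5617, 5522 and 5360.4 at P14. Every P14 library was above every P7 library, and in cortex and olfactory bulb P1 and P7 overlapped. The differences from P1 to P14 were 2.58 (SE 0.11, adjusted p = 4.37e-10), 3.19 (SE 0.16, adjusted p = 3.76e-08) and 3.45 (SE 0.18, adjusted p = 1.3e-07) in cortex, hippocampus and the olfactory bulb. Per kilobase of exon, Aldoc stood at 6786 ± 608 (mean ± SD) normalized reads at P14 in cortex, 4866 ± 455 in hippocampus and 1848 ± 43.6 in the olfactory bulb, first among the members in each, ahead of Gapdh at 2942 ± 341, 1648 ± 139 and 1112 ± 108. At P1 in the olfactory bulb it was the fourth of the members per kilobase, at 169 ± 21.2, behind Gapdh, Ldhb and Pgam1.

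Aldoa, the aldolase made in most tissues, was at 404, 513 and 543 at P1, then 618, 594 and 586 at P7 and then 1399, 1265, 1366 and 1218 at P14 in cortex. Libraries from hippocampus had 200.1, 192 and 120.4 at P1 and 729, 834 and 735 at P14, and olfactory bulb libraries were at 131, 127 and 96.5 at P1 and 491, 608 and 530.4 at P14. It rose in every region too (1.44, 2.19 and 2.20). The log2 ratio of Aldoc to Aldoa within a library was 2.86, 2.81 and 2.74 at P1 and 3.99, 4.03, 3.71 and 4.03 at P14 in cortex, a difference of 1.14. In hippocampus the ratio was 2.97, 3.16 and 3.59 at P1 and 4.28, 3.99 and 4.44 at P14, and in the olfactory bulb 1.73, 2.14 and 2.38 at P1 and 3.51, 3.18 and 3.33 at P14. P1 and P14 ratios did not overlap in any region, and the ratio was higher at P14 by 0.999 in hippocampus and 1.26 in the olfactory bulb. Exact two-sided permutation tests over libraries gave p = 0.0571 in cortex and p = 0.1 in the other regions, the smallest these group sizes allow, with an adjusted value of 0.236 over the 33 ratio tests.

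Phosphofructokinase makes the committed step. Pfkm, its muscle-type subunit, was at 171, 183 and 193 at P1, then 297, 329 and 288 at P7 and then 995, 887, 849 and 871 at P14 in cortex. Values in hippocampus were 85.1, 95.3 and 119.8 at P1, then 248, 257 and 326 at P7 and then 589, 529 and 532 at P14. Libraries from olfactory bulb had 89.6, 81.9 and 77.2 at P1, then 133, 153 and 114 at P7 and then 586, 532 and 497 at P14. The 3 ages formed separate ranges in every region, in rising order. From P1 to P14 it rose by 2.30 (SE 0.10, adjusted p = 3.32e-10), 2.46 (SE 0.18, adjusted p = 7.04e-07) and 2.68 (SE 0.17, adjusted p = 4.94e-07). Pfkp, the platelet-type subunit, was called higher in hippocampus and the olfactory bulb only. In cortex it was at 396, 364 and 286 at P1, then 211, 72.7 and 336 at P7 and then 311, 262, 231 and 263 at P14, and the difference between P14 and P1 was -0.38 (adjusted p = 0.367). In hippocampus the values were 25.6, 15.6 and 49.2 at P1, then 52.5, 91.96 and 208 at P7 and then 152, 260.2 and 245 at P14, and olfactory bulb libraries were at 30.5, 36.99 and 50.7 at P1, then 143, 168 and 125 at P7 and then 103, 136 and 135 at P14. There it rose by 2.93 (SE 0.51, adjusted p = 0.000543) and 1.66 (SE 0.25, adjusted p = 0.000208). The low cortex P7 library was replicate 2, which also had the lowest neuron marker sum of that group, 3836, 1837 and 4664 in library order. It had the highest microglia marker sum of that group too, 546, 1702 and 614 in library order. In hippocampus and the olfactory bulb, Pfkp was lowest at P1, the age with the highest neuron marker sums. The part of other cell types in the Pfkp values was not tested.

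The log2 ratio of Pfkp to Pfkm was 1.21, 0.99 and 0.56 at P1 and -1.67, -1.75, -1.87 and -1.72 at P14 in cortex. It was thus above 0 in each P1 library and below 0 in each P14 library there, a difference of -2.68 (exact permutation p = 0.0571, adjusted 0.236). Olfactory bulb ages also stood apart, with a difference of -1.03 (exact permutation p = 0.1), and in hippocampus the ages overlapped.

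Gpi1, glucose 6-phosphate isomerase, was at 393, 477 and 490.1 at P1 and 999, 1084, 952 and 1003 at P14 in cortex, and rose by 1.16, 1.45 and 1.84 in cortex, hippocampus and the olfactory bulb. Tpi1, triose phosphate isomerase, rose by 1.58, 1.92 and 1.81, and Pfkl, the liver-type subunit, by 0.93, 0.86 and 1.35. The hippocampal call of Pfkl was lost without P1 replicate 1 or 3 or P14 replicate 1 or 2 (adjusted p = 0.063 to 0.179 by limma). The 2 members that encode the bifunctional regulators of fructose 2,6-bisphosphate are Pfkfb2 and Pfkfb3. Pfkfb3 was at 190.1, 180.3 and 178 at P1, then 304, 332 and 293 at P7 and then 150.2, 119, 184 and 157 at P14 in cortex. In hippocampus it was at 325, 315 and 292 at P1, then 359.9, 424 and 339 at P7 and then 201, 164 and 285 at P14, and olfactory bulb libraries were at 190.4, 159 and 169 at P1, then 152, 174 and 114 at P7 and then 320.0, 249 and 299.9 at P14. In cortex it rose by 0.76 to P7 (adjusted p = 0.00147) and fell by P14 (-1.03, adjusted p = 4.71e-05). In hippocampus all P14 values were below all P1 values (-0.55, SE 0.20, adjusted p = 0.0375), and in the olfactory bulb all were above (0.74, SE 0.19, adjusted p = 0.00745). The hippocampal call was lost with edgeR (adjusted p = 0.0752) and without any 1 library but P14 replicate 3 (adjusted p = 0.0677 to 0.108 by limma), all with the same sign. Pfkfb2 lay between 62.0 and 235 normalized reads in the developmental libraries and was called from P1 to P14 in no region.

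**Figure D3:**
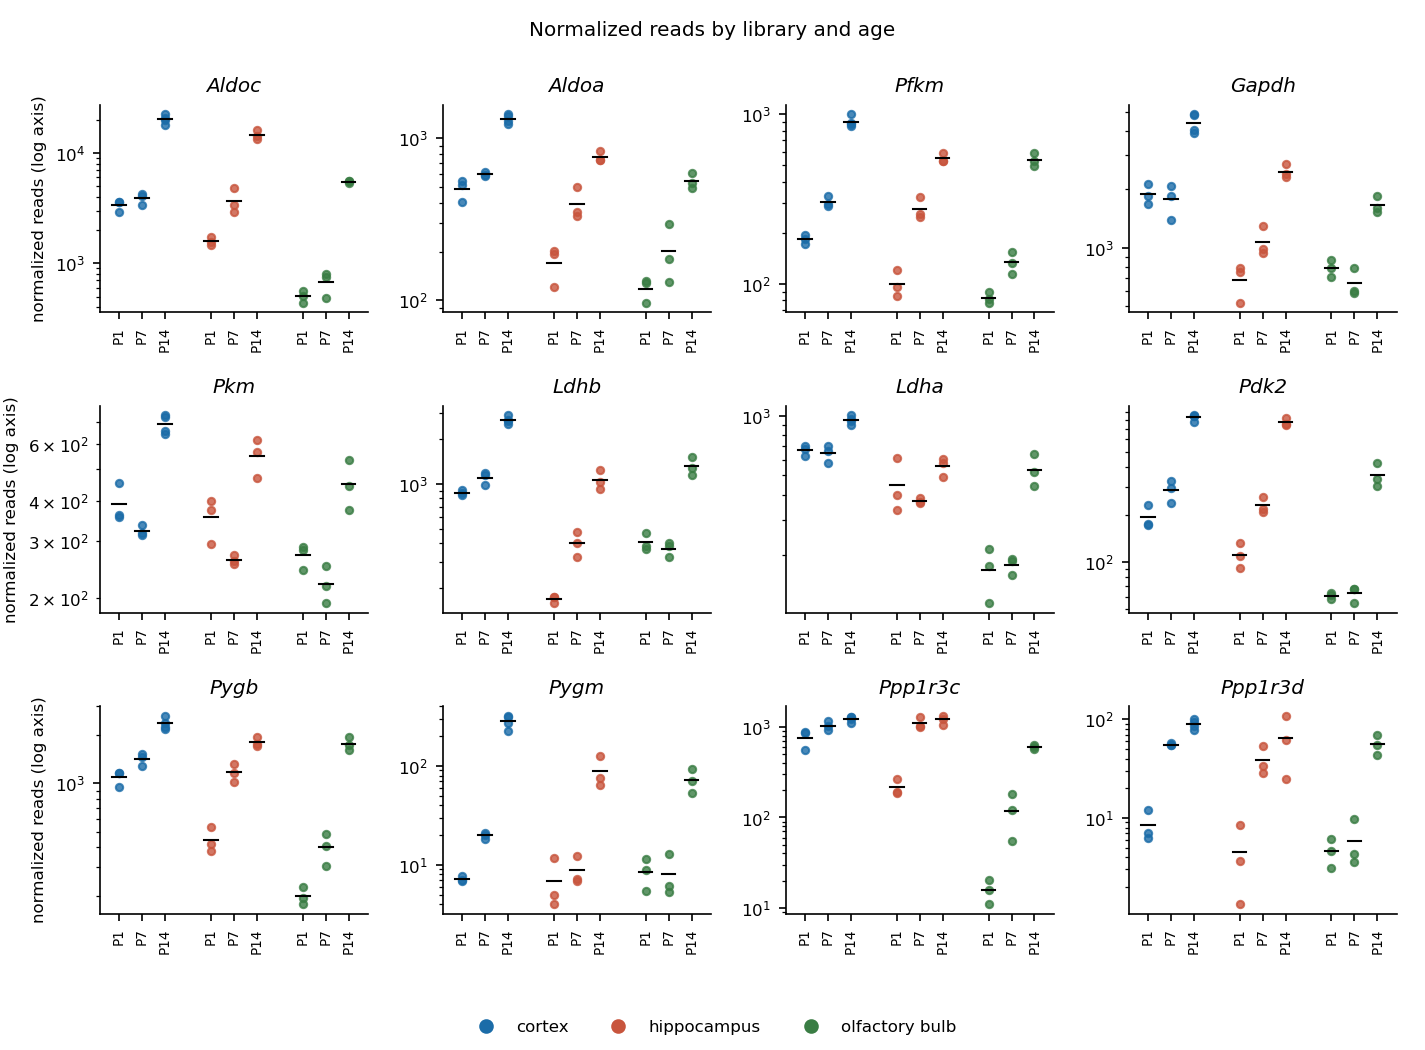
Normalized reads (vertical, log axis, scale set per gene) of 12 members in each library at P1, P7 and P14, with the group mean as a line. In all 3 regions Aldoc, Pfkm and Pygm have their P14 libraries above all P1 and P7 libraries, while Ppp1r3c in hippocampus already reaches its P14 level at P7.

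In lower glycolysis, of the 5 members tested, 4 rose from P7 to P14 in every region (Gapdh, Pgk1, Pgam1 and Pkm), while between P1 and P7 none was called in cortex and olfactory bulb, and 2 of the 5, Gapdh and Pgam1, were called higher in hippocampus. Of all genes, 18.6%, 12.5% and 20.4% rose from P7 to P14 in cortex, hippocampus and the olfactory bulb. From P1 to P7 these shares were 15.6%, 11.2% and 7.59%. Gapdh, glyceraldehyde 3-phosphate dehydrogenase, was at 2132, 1844 and 1682 at P1, then 2082, 1851 and 1399 at P7 and then 4853, 3888, 4033 and 4818 at P14 in cortex. Hippocampal libraries were at 750.4, 786 and 522 at P1, then 984, 945 and 1303 at P7 and then 2393, 2301 and 2698 at P14. Values in the olfactory bulb were 791, 869 and 708 at P1, then 788, 583 and 598 at P7 and then 1610.0, 1533 and 1842 at P14. All P14 libraries were above all earlier ones. The differences from P1 to P14 were 1.22 (SE 0.13, adjusted p = 3.38e-06), 1.86 (SE 0.17, adjusted p = 4.82e-06) and 1.07 (SE 0.15, adjusted p = 0.000112), so this gene, which is often used as a fixed reference, was not constant over these ages. Pgk1, phosphoglycerate kinase, rose by 1.11 to 1.49 and Pgam1, phosphoglycerate mutase, by 0.998 to 1.63 over the regions. Pkm, pyruvate kinase, had the smallest rise of this group, 0.83 in cortex, 0.63 in hippocampus and 0.72 in the olfactory bulb.

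The enolases are harder to read. Eno2, the neuronal enolase, was at 62.8, 35.01 and 31.3 at P1 and 9.08, 2.52, 8.83 and 14.5 at P14 in cortex, 12.1, 11.6 and 16.6 at P1 and 0, 2.21 and 7.17 at P14 in hippocampus and 24.02, 30.8 and 35.3 at P1 and 5.96, 9.65 and 44.4 at P14 in the olfactory bulb. It fell in cortex (-2.29, SE 0.59, adjusted p = 0.00367) and hippocampus (-2.26, SE 0.74, adjusted p = 0.0247), and in the olfactory bulb P14 replicate 3 lay above all P1 libraries (-1.03, adjusted p = 0.195). The hippocampal difference of Eno2 was -0.47 under quantile normalization (adjusted p = 0.567 by limma) and -1.48 without P14 replicate 1, and the olfactory bulb difference was -1.83 without P14 replicate 3 (adjusted p = 0.00916 by limma). Per kilobase of exon, Eno2 in the olfactory bulb spanned 8.59 to 12.6 normalized reads at P1, 18.0 to 57.2 at P7 and 2.13 to 15.9 at P14. All its P7 libraries there were thus above all P1 and P14 libraries. The difference from P1 to P7 was not called there. From P7 to P14 Eno2 was called lower in hippocampus and the olfactory bulb. Eno1, the enolase of most tissues, glia included, was at no more than 0.946 normalized reads in any developmental library, which is 2 reads or fewer. A second row, Eno1b, outside the 35 members and chosen after its values were seen, had 302, 258 and 277 at P1 and 869, 865, 816 and 941 at P14 in cortex. Its transcript and that of Eno1 are 99.5% identical over 1652 aligned bases, with 9 mismatches, so the authors' counting could split reads between them and the level of Eno1 itself is uncertain. The ratio of Eno2 to Eno1 was therefore not used. Gapdh, Pgam1, Tpi1, Ldha, Aldoa and Pkm also have near-identical pseudogene copies, and how the counting treated shared reads is not given in the sources used here.

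Ldhb rose in all 3 regions and Ldha in cortex and the olfactory bulb. Ldhb encodes the heart-type and Ldha the muscle-type subunit of lactate dehydrogenase. Ldhb was at 843, 872 and 908 at P1, then 1145, 1192 and 978 at P7 and then 2908, 2651, 2516 and 2704 at P14 in cortex. The hippocampal values were 173, 158 and 174 at P1, then 402, 323 and 476 at P7 and then 1236, 924 and 1032 at P14, and olfactory bulb libraries were at 369, 472 and 383 at P1, then 381, 399 and 324 at P7 and then 1272, 1155 and 1523 at P14. It rose in each region, by 1.62 (SE 0.087, adjusted p = 3.68e-09), 2.64 (SE 0.17, adjusted p = 2.67e-07) and 1.69 (SE 0.16, adjusted p = 6.26e-06). Ldha was at 624, 679 and 704 at P1, then 703, 663 and 578 at P7 and then 941, 1007, 961 and 899.7 at P14 in cortex. Libraries from hippocampus had 613, 398 and 335 at P1, then 369, 384 and 363 at P7 and then 579, 491 and 602 at P14, and olfactory bulb libraries were at 176, 213 and 114 at P1, then 189.9, 187 and 158 at P7 and then 519, 442 and 643 at P14. It rose in cortex (0.51, SE 0.090, adjusted p = 0.00023) and olfactory bulb (1.70, SE 0.23, adjusted p = 0.000109), and in hippocampus the ages overlapped (0.35, adjusted p = 0.163), with a called difference of 0.60 without P1 replicate 1 (adjusted p = 0.0154 by limma).

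The ratio of the subunits stood apart between P1 and P14 in 2 of the 3 regions. In hippocampus the log2 ratio of Ldhb to Ldha was -1.81, -1.33 and -0.94 at P1 and 1.09, 0.91 and 0.78 at P14, so it was below 0 in every P1 library and above 0 in every P14 library. In cortex it was 0.43, 0.36 and 0.37 at P1 and 1.63, 1.40, 1.39 and 1.59 at P14. In the olfactory bulb it was 1.06, 1.14 and 1.75 at P1 and 1.29, 1.38 and 1.24 at P14, and the ages overlapped. The differences were 2.29 in hippocampus (exact permutation p = 0.1, adjusted 0.236), 1.11 in cortex (p = 0.0571, adjusted 0.236) and -0.01 in the olfactory bulb (p = 1). Whether the regions differ was not tested.

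**Figure D4:**
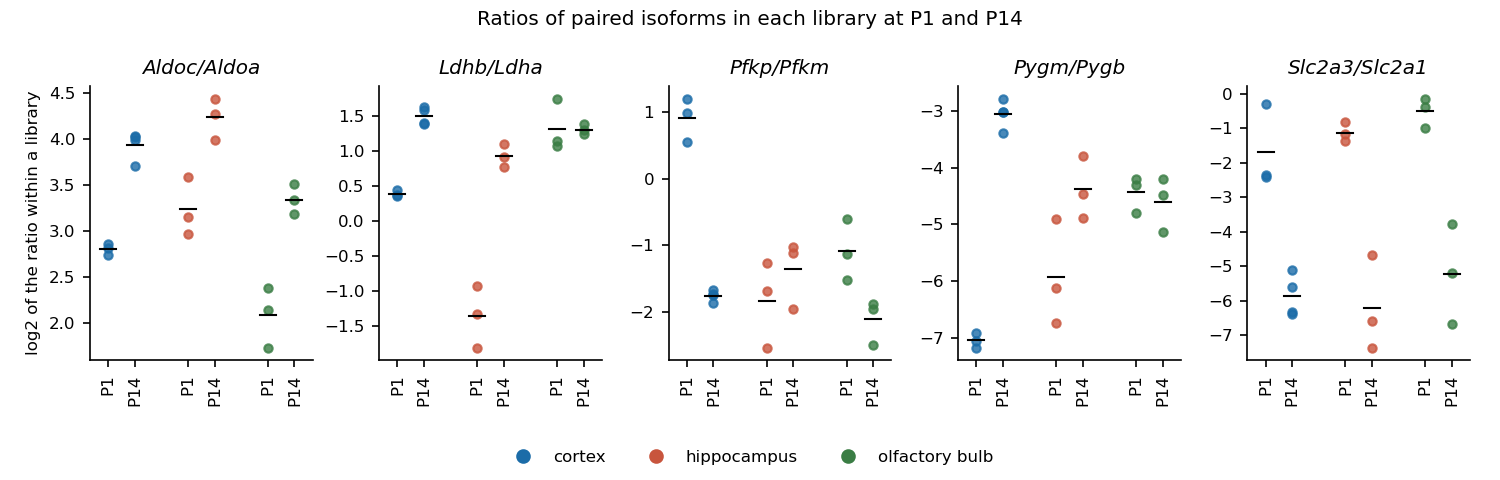
Log2 ratio (vertical axis) of 5 isoform pairs within each library at P1 and P14, with the group mean as a line. Aldoc/Aldoa is higher and Slc2a3/Slc2a1 lower in every P14 library than in any P1 library of the region, while Ldhb/Ldha and Pygm/Pygb stand apart in cortex and hippocampus and overlap in the olfactory bulb.

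Among the carriers, Slc16a1 (MCT1), found in endothelium, oligodendrocytes and astrocytes, was at 19.04, 63.97 and 102 at P1, then 234, 163 and 214 at P7 and then 163, 94.96, 249 and 124 at P14 in cortex. Values in hippocampus were 80.1, 96.7 and 68.2 at P1, then 213, 177 and 156 at P7 and then 50.5, 80.5 and 168 at P14. In the olfactory bulb it was at 30.8, 47.1 and 29.8 at P1, then 46.7, 56.5 and 56.4 at P7 and then 288, 549 and 457 at P14. It rose in the olfactory bulb by 3.53 (SE 0.28, adjusted p = 2.17e-06) and in cortex by 1.54 (SE 0.44, adjusted p = 0.0075), where P1 and P14 overlapped. Without cortex P1 replicate 1 the Slc16a1 difference was 0.86, and without both P14 libraries with Ddx3y reads it was 1.29 and no longer called (adjusted p = 0.0597 by limma). In hippocampus P14 values covered the P1 values (0.13, adjusted p = 0.801). Its highest cortex value at P14 was in replicate 3, which also had the highest endothelial and mural sum of that group, 1127 against 306 to 365 in the others. The part of those cells in the result was not tested. Slc16a7 (MCT2), the high-affinity carrier known from neurons, was at 92.9, 72.03 and 80.1 at P1 and 14.8, 4.40, 9.15 and 6.23 at P14 in cortex, 18.9, 17.8 and 10.4 at P1 and 0, 1.10 and 8.96 at P14 in hippocampus and 19.7, 17.6 and 20.96 at P1 and 17.9, 28.9 and 15.3 at P14 in the olfactory bulb. It fell in cortex (-3.21, SE 0.44, adjusted p = 2.26e-05) and hippocampus (-2.56, SE 0.77, adjusted p = 0.0165) and differed by 0.04 ± 0.38 (SE) in the olfactory bulb, with overlap. Under quantile normalization the hippocampal difference was -0.73 (adjusted p = 0.324 by limma), and the call was also lost without P1 replicate 1 or 2 (adjusted p = 0.0618 and 0.0576). Slc16a3 (MCT4), the lactate exporter of strongly glycolytic cells, had at most 4.92 normalized reads in a developmental library, and no fold was computed for it.

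Of the pyruvate dehydrogenase kinases, Pdk2 and Pdk4 rose in every region. Pdk2 was at 173, 230.2 and 172 at P1, then 328, 295 and 237 at P7 and then 855, 771, 839 and 848 at P14 in cortex. In hippocampus the values were 91.5, 132 and 109 at P1, then 208, 218 and 259 at P7 and then 751, 739 and 813 at P14, and olfactory bulb libraries were at 61.7, 58.1 and 63.4 at P1, then 67.6, 67.9 and 54.6 at P7 and then 425, 336 and 303 at P14. Its olfactory bulb libraries overlapped at P1 and P7 and the rise came between P7 and P14. Over P1 to P14 it rose by 2.12 (SE 0.13, adjusted p = 1.25e-08), 2.79 (SE 0.17, adjusted p = 1.94e-07) and 2.51 (SE 0.20, adjusted p = 2.37e-06). Pdk4, the isoform known to rise in fasting, was at 52.8, 78.8 and 75.2 at P1, then 234, 169 and 184 at P7 and then 288, 346, 302 and 266 at P14 in cortex. In hippocampus it was at 54.5, 69.9 and 48.5 at P1 and 314, 222 and 235 at P14, and olfactory bulb libraries were at 24.4, 29.9 and 21.5 at P1 and 61.6, 86.8 and 74.97 at P14. Its differences were 2.12, 2.13 and 1.52. In cortex most of the rise came before P7 (1.50, against 0.63 from P7 to P14). Pdk1 rose in hippocampus (0.78) and olfactory bulb (1.10), and Pdk3 was called in no region.

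Glycogen genes included the largest rises. Of the 7 members, 5 rose from P1 to P14 in cortex, 6 in hippocampus and 7 in the olfactory bulb, and 1, Pygl in hippocampus, fell. The shares of all genes were 24.0%, 21.0% and 24.8% higher and 40.3%, 28.5% and 31.4% lower, in the same order. Pygm was at 6.82, 7.05 and 7.70 at P1, then 18.5, 20.1 and 20.8 at P7 and then 323, 315, 225 and 273 at P14 in cortex. Hippocampal libraries were at 4.99, 4.01 and 11.7 at P1, then 7.25, 6.88 and 12.3 at P7 and then 76.3, 126 and 64.5 at P14. Olfactory bulb libraries were at 5.38, 11.4 and 8.82 at P1, then 6.14, 12.9 and 5.34 at P7 and then 53.7, 92.4 and 70.8 at P14. The increase came between P7 and P14 in hippocampus and the olfactory bulb, where P1 and P7 overlapped, and in cortex P7 already lay above P1. From P1 to P14 it rose by 5.11 (SE 0.20, adjusted p = 2.07e-10), 3.57 (SE 0.53, adjusted p = 0.000187) and 2.96 (SE 0.47, adjusted p = 0.000285), and the cortex value is the largest of any tested member there.

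Pygb, the brain isoform of glycogen phosphorylase, was at 941, 1164 and 1159.5 at P1, then 1460.4, 1519 and 1285 at P7 and then 2627, 2179, 2369.6 and 2224 at P14 in cortex. The hippocampal values were 418, 533 and 382 at P1, then 1019, 1158 and 1321 at P7 and then 1713, 1761 and 1931 at P14, and olfactory bulb libraries were at 177, 228 and 194 at P1, then 407, 485 and 307 at P7 and then 1924, 1726 and 1608 at P14. The 3 ages did not overlap in any region. It rose by 1.11, 2.03 and 3.13. Per kilobase Pygb stayed above Pygm at P14, at 601 ± 51.6 against 98.8 ± 15.7 in cortex. The log2 ratio of Pygm to Pygb was -6.91, -7.18 and -7.06 at P1 and -3.02, -2.79, -3.39 and -3.02 at P14 in cortex, a difference of 3.995 (exact permutation p = 0.0571, adjusted 0.236). It differed by 1.54 in hippocampus without overlap and by -0.17 with overlap in the olfactory bulb. Pygl, the liver isoform, fell in hippocampus (-1.36, SE 0.43, adjusted p = 0.0209) and rose in the olfactory bulb (1.70, SE 0.47, adjusted p = 0.00986), with at most 74.4 normalized reads in any developmental library. Its hippocampal call was lost without P1 replicate 1 or 3 (adjusted p = 0.0615 and 0.0967 by limma).

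Ppp1r3c was at 555, 876 and 866 at P1, then 1027, 1168 and 924 at P7 and then 1217, 1294, 1111 and 1296 at P14 in cortex. Libraries from hippocampus had 268, 189.8 and 188 at P1, then 1028, 1298 and 1011 at P7 and then 1057, 1337 and 1242 at P14. The olfactory bulb values were 15.8, 20.3 and 11.03 at P1, then 120.4, 183 and 54.6 at P7 and then 630.1, 575 and 594 at P14. In hippocampus it was called higher from P1 to P7 and not from P7 to P14 (2.37 to P7, then 0.13, adjusted p = 0.616), while in the olfactory bulb it went on at each step (2.73 and 2.48) to a total of 5.21 (SE 0.38, adjusted p = 1.22e-06). In cortex, where it was already at 555 or more at P1, it rose by 0.71 (SE 0.14, adjusted p = 0.00071). Ppp1r3d was at 7.10, 6.30 and 12.1 at P1, then 54.8, 54.9 and 57.1 at P7 and then 78.7, 94.96, 85.1 and 101 at P14 in cortex. Values in hippocampus were 8.55, 1.34 and 3.69 at P1, then 33.8, 53.8 and 28.4 at P7 and then 24.7, 61.7 and 109 at P14, and olfactory bulb libraries were at 4.66, 3.08 and 6.07 at P1, then 9.83, 4.29 and 3.56 at P7 and then 43.7, 68.9 and 55.5 at P14. It rose by 3.30, 3.58 and 3.36 from P1 to P14. In cortex it was called higher at both steps (2.63 to P7, then 0.68, adjusted p = 0.0288), in hippocampus from P1 to P7 and in the olfactory bulb from P7 to P14. Gys1, the glycogen synthase, rose in every region (1.08, 1.67 and 1.55). Gbe1, the branching enzyme, was at 46.3, 75.6 and 99.04 at P1 and 85.5, 84.3, 110.4 and 67.5 at P14 in cortex and 66.6, 58.4 and 56.5 at P1 and 94.6, 90.4 and 120.0 at P14 in hippocampus, and was called higher in hippocampus (0.73) and olfactory bulb (0.98). The calls of Gbe1 were lost without any 1 of 4 libraries in hippocampus (adjusted p = 0.0571 to 0.0912 by limma) and of 5 in the olfactory bulb (adjusted p = 0.0888 to 0.136), where without P14 replicate 2 the difference was 1.49.

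Of 68 further genes of the same pathways, 43 were tested in each region, and in cortex, hippocampus and the olfactory bulb 22, 23 and 22 of them had risen by P14 and 6, 7 and 7 had fallen. Of all genes tested, 24.0%, 21.0% and 24.8% were higher and 40.3%, 28.5% and 31.4% were lower, in the same order of regions. The medians of the further genes were 0.69, 1.03 and 0.86. The largest rises were in the control of glycogen breakdown and storage. Phkg1, the catalytic subunit of muscle phosphorylase kinase, rose from a mean of 7.61 to 177 in cortex (4.44 ± 0.26, SE), from 3.07 to 139.9 in hippocampus (5.08 ± 0.39, SE) and from 1.21 to 62.7 in the olfactory bulb (4.89 ± 0.79, SE). Phka1, a regulatory subunit of that kinase, rose by 2.63 in cortex and 3.23 in the olfactory bulb. Phka2, the other form of that subunit, fell by 2.59 in hippocampus and by 2.16 in the olfactory bulb. Ppp1r3g, another glycogen-targeting subunit, rose by 4.42 in cortex and 4.61 in hippocampus, and Ppp1r3b by 4.74 in the olfactory bulb. Galm, galactose mutarotase, was the third largest rise in hippocampus (3.47). Pdp1, the phosphatase that opposes the pyruvate dehydrogenase kinases, fell in cortex (-2.09) and hippocampus (-1.96), and Pgm2l1, which makes glucose 1,6-bisphosphate, fell in cortex (-1.81) and olfactory bulb (-2.06). The remaining largest falls were the muscle enolase Eno3 in cortex (-1.74), mitochondrial phosphoenolpyruvate carboxykinase Pck2 in hippocampus (-1.999) and Tigar in the olfactory bulb (-1.74).

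At P28 the comparison asks what loss of Gabbr1 does in astrocytes. Gabbr1 itself was at 1746, 1930.1, 1159 and 927 in controls and 89.8, 96.5, 134 and 211 in cKO libraries in cortex. In hippocampus the values were 779.8 and 824 in controls and 167, 379.9, 152 and 256 in cKO libraries. Libraries from olfactory bulb had 318, 184 and 189 in controls and 63.6, 99.5 and 78.2 in cKO libraries. Every cKO library lay below every control library of its region.

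No member was called between genotypes. Of 30 members tested in cortex, 31 in hippocampus and 33 in the olfactory bulb, 0 passed by limma, by edgeR or by DESeq2, while limma called 0.00982%, 0.00% and 0.00% of all genes. Limma thus did not call Gabbr1 itself in hippocampus or the olfactory bulb, although all its cKO libraries lay below the controls there. A member without a call in these 2 regions can therefore still differ. At an unadjusted limma p under 0.05 there were 0, 0 and 1 members, against 2.17%, 2.54% and 3.02% of all genes. The medians of the members were 0.03, -0.18 and 0.24. Genotypes did not overlap for 0 members in cortex, 3 in hippocampus and 4 in the olfactory bulb, and for 1.89%, 15.0% and 10% of all genes tested.

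The member with the smallest unadjusted p was Slc2a1 in the olfactory bulb. It was at 148, 71.5 and 234 in controls and 322, 246 and 322 in cKO libraries, all cKO values above all control values, with a difference of 1.12 ± 0.40 (SE) (unadjusted p = 0.0176, adjusted p = 0.877 by limma). The endothelial and mural sum was 196, 180.4 and 388 in those controls and 649, 544 and 361 in the cKO libraries, and its part was not tested. Without control replicate 2 the difference was 0.66 (adjusted p = 0.999 by limma). That library, the lowest control, was also the library with 0.476% of its reads on the ribosomal RNA gene Rn45s, against 28.8% to 35.8% in the other 5 P28 olfactory bulb libraries. In cortex Slc2a1 was at 375, 264, 567 and 485 in controls and 275, 308, 512 and 622 in cKO libraries (-0.002 ± 0.29, SE), and in hippocampus at 368 and 335 in controls and 409, 183, 479 and 591 in cKO libraries (0.12 ± 0.44, SE), both with overlap.

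The other members without overlap in the olfactory bulb were also higher in the cKO. Gpi1 was at 652, 431 and 501 in controls and 728, 755 and 664 in cKO libraries (0.46 ± 0.23, SE). Pfkfb3 was at 292, 214 and 216 in controls and 333, 321 and 385 in cKO libraries (0.53 ± 0.25, SE). Gapdh was at 1499, 987 and 1170.5 in controls and 1713, 1556 and 1708 in cKO libraries (0.46 ± 0.22, SE). Adjusted p was 0.877 by limma for each. As for Slc2a1, the lowest control value of each was in control replicate 2, the library with 0.476% of its reads on Rn45s. Its neuron marker sum was 4327, against 1434 and 1505 in the other controls. Without this library the median member difference in the olfactory bulb was 0.11 in place of 0.24. The part of this library in these differences was not tested. In hippocampus the 3 members without overlap were lower in the cKO. Hk1 was at 368 and 414 in controls and 273, 264, 309 and 265 in cKO libraries (-0.49 ± 0.26, SE). Ldhb was at 2077 and 2032 in controls and 1763, 1453, 1989 and 1668 in cKO libraries (-0.27 ± 0.26, SE). Gbe1 was at 261 and 286 in controls and 131, 107, 221 and 209 in cKO libraries (-0.77 ± 0.38, SE). None of these passed, and with 2 control libraries the control spread there rests on a single difference. The sum of 5 choroid plexus and ependymal markers was 133338 and 65477 in these controls and 48912.5, 10846, 69107 and 124934 in the cKO libraries. The 12 astrocyte markers summed to 165951 and 183797 in controls and 248613, 384901, 190986 and 129760 in cKO libraries. The lowest cKO value of Hk1, Ldhb and Gbe1 was in replicate 2, which had 0.594% of its reads on Rn45s. The part of these in the differences was not tested.

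**Figure D5:**
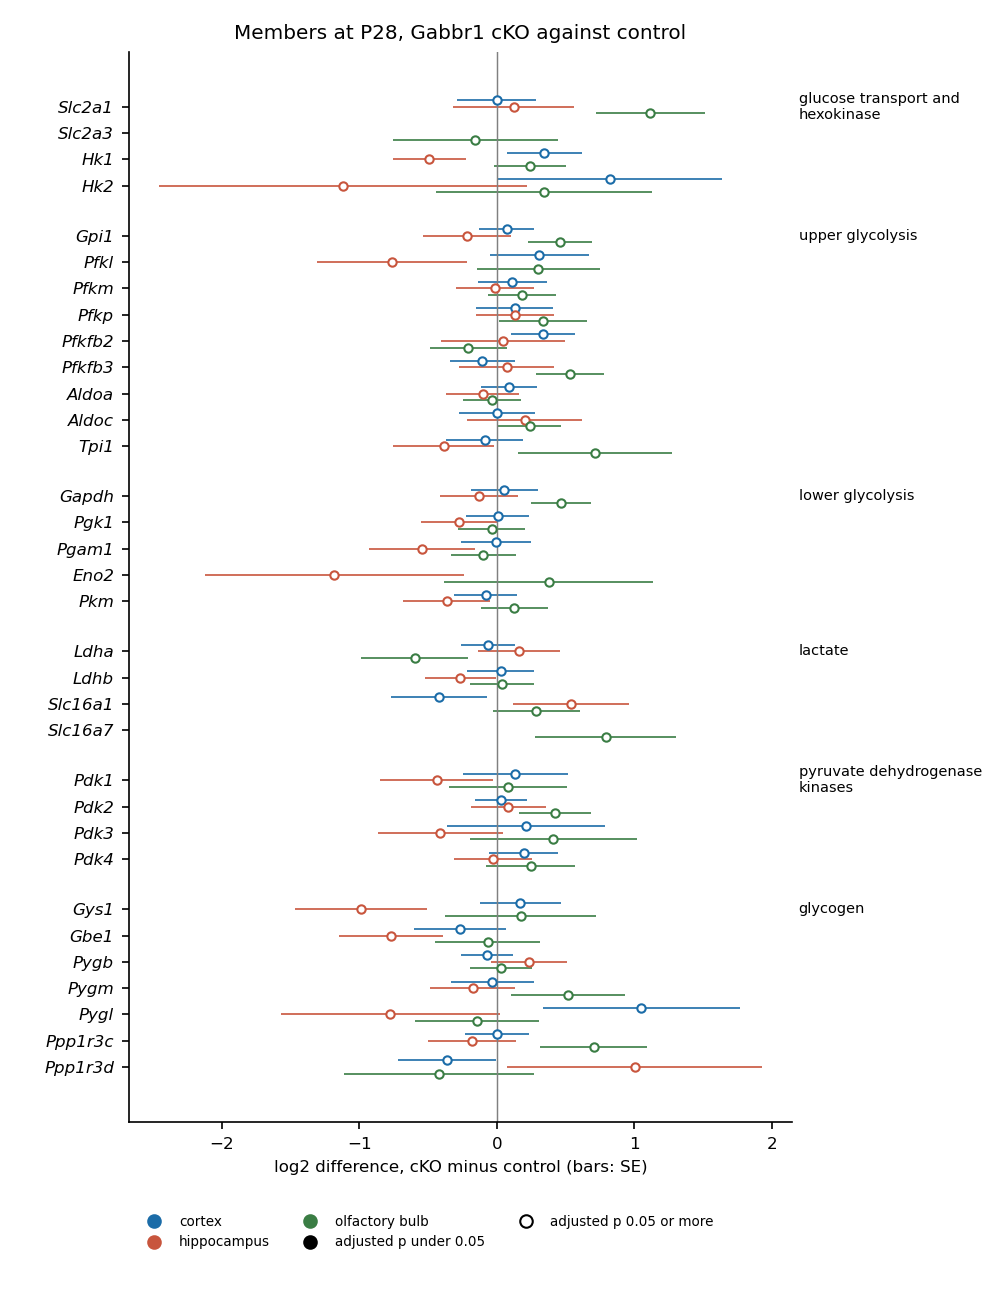
Log2 difference between Gabbr1 cKO and control at P28 (horizontal axis) for each tested member, with 1 point per region and bars of 1 SE. No point passed an adjusted p of 0.05, and the hippocampal bars are the widest for several genes.

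The strongly developmental genes showed how wide the P28 intervals are. Aldoc was at 19063, 19904, 12333 and 10271 in controls and 18760.3, 17210.5, 15900.1 and 9352 in cKO libraries in cortex (-0.000 ± 0.27, SE). Its low values, 12333 and 10271 in controls and 9352 in the cKO, are those of the 3 libraries labelled with tamoxifen, in both genotypes. The same 3 libraries differ from the other 5 in the style of their titles and were deposited in a later round, so label and round cannot be told apart. With the round as a covariate limma called 0 members between genotypes in cortex. In hippocampus it was at 9214 and 12986 in controls and 16814, 15191, 12105 and 8098 in cKO libraries (0.20 ± 0.42, SE), and in the olfactory bulb at 10258, 8952 and 6627 in controls and 10179.9, 9495 and 10314 in cKO libraries (0.24 ± 0.23, SE). Pfkm differed by 0.11 ± 0.25 (SE) in cortex, -0.01 ± 0.29 (SE) in hippocampus and 0.18 ± 0.25 (SE) in the olfactory bulb. Pygm differed by -0.03 ± 0.30 (SE), -0.17 ± 0.31 (SE) and 0.52 ± 0.41 (SE), Ppp1r3c by 0.000 ± 0.23 (SE), -0.18 ± 0.32 (SE) and 0.70 ± 0.39 (SE), and Pdk2 by 0.03 ± 0.19 (SE), 0.08 ± 0.27 (SE) and 0.42 ± 0.26 (SE). These misses do not show that the genotypes are alike.

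No isoform ratio at P28 passed its test. The log2 ratio of Aldoc to Aldoa did not overlap in the olfactory bulb, at 3.81, 3.77 and 3.41 in controls and 3.88, 4.04 and 3.89 in cKO libraries (difference 0.28, exact permutation p = 0.1, adjusted 0.236). The ratio of Pygm to Pygb did not overlap in hippocampus, at -2.65 and -2.70 in controls and -2.71, -3.36, -3.38 and -2.89 in cKO libraries (difference -0.41, exact permutation p = 0.133, adjusted 0.293). These are the smallest p-values that 3 against 3 and 4 against 2 libraries allow. In the other 14 ratio tests at P28 the genotypes overlapped.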

How the data were processed

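The 48 RNA-seq libraries were made from small amounts of total RNA with the Trio RNA-seq kit of Nugen, per the labels' protocols. The authors deposited 6 tables, one per region for P1 to P14 and one per region for P28, whose signal values are reads divided by one size factor per library. All values came out as whole reads (100%, tolerance 0.02) when divided by each library's step, although in olfactory bulb cKO replicate 2 the step is so close to 1 that this is a weak check. Per the submitters' processing notes, mm10, STAR 2.5.0a, DESeq2 1.20.0, FastQC and MultiQC were used. The counting program, annotation and strand setting are not given in the sources used here, so reads of overlapping antisense genes cannot be told apart.

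Genes with a table mean of at least 10 were tested with limma 3.58.1 (eBayes with trend, R 4.3.3) on log2(value + 1), which understates changes of low genes, with Benjamini-Hochberg adjustment over all genes tested. P1, P7 and P14 of a region shared 1 fit, and P28 had its own. Pair ratios, log2((a + 1)/(b + 1)), were tested by exact two-sided permutation. Recovered reads were tested with edgeR 4.0.16 and DESeq2 1.42.0 as alternatives, beside other pseudocounts, filters, scalings, samples in the fit and libraries left out. The limma fit was run on simulated reads with known changes, for P14 against P1 and for the P28 genotypes in each region. How many of those changes it recovered is not given here, so this run does not tell what the P28 tests could miss. Levels per kilobase used GENCODE exon lengths, found for all 35 members, and promoters came from RefSeq. No column outside the libraries was present. Some symbols in 5 tables had become dates, none of them a member. Members and lists were chosen with earlier results of these data known. Values in every library are given for members that differ at least 4-fold between P1 and P14 in any region, for paired isoforms, and for members whose P28 genotypes do not overlap, and of the other pathway genes the 3 largest called rises and falls per region are named.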

Additional observations from a re-analysis of the deposited data

Results flagged for a closer look

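Each member tested in a group of 4 libraries was examined, 33 members at P14 in cortex and 30 to 31 in each of 3 P28 groups. In 8 of these 124 cases, all at P28, 1 library stood apart from the rest by Dixon's ratio, where chance flags about 1 in 20. In cortex these were Gys1 in control replicate 2 (120.3 normalized reads against 70.8 to 76.7, ratio 0.880), and in cKO libraries Pfkfb2 in replicate 3 (234 against 163 to 174, ratio 0.845), Pdk4 in replicate 1 (271 against 169.8 to 186, ratio 0.844) and Ppp1r3d in replicate 1 (26.9 against 43.95 to 47.2, ratio 0.840). In hippocampal cKO libraries they were Aldoa in replicate 3 (1655 against 1190.2 to 1249, ratio 0.873) and, in replicate 2, Pfkfb2 (614 against 189 to 253, ratio 0.849), Pdk3 (52.0 against 126 to 134, ratio 0.9102) and Ppp1r3d (315 against 24.6 to 50.3, ratio 0.912). Hippocampal cKO replicate 2 had 0.594% of its reads on Rn45s, against 28.6% to 38.0% in the other hippocampal P28 libraries. The part of this in its values was not tested.

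Pfkfb3 and Pygl were called in opposite directions in 2 regions, and the hippocampal call of each was lost in some alternative runs. From P1 to P14 Pfkfb3 changed by 0.74 in the olfactory bulb and -0.55 in hippocampus, a gap of 1.29 on the log2 scale, and Pygl by 1.70 and -1.36, a gap of 3.07. The difference between regions was not tested, since the tables were scaled separately.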

How the results depend on the processing

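No paired analysis was possible because replicate numbers follow accession order and pair no libraries across groups. Of the 80 called member changes from P1 to P14, 70 kept their call under every alternative run, 10 lost it in at least 1 (47 of 1302 alternative fits) and 0 changed sign, while 10 uncalled changes became called in at least 1. The count of members changed from P1 to P7 in cortex was 14 and became 9 without the mean-variance trend and 9 to 15 with 1 library left out. In the olfactory bulb it was 4 and became 8 with DESeq2, 8 with only the ages compared in the fit, and 3 to 6 with 1 library left out. The counts at P28 stayed at 0 under all alternatives. The causes were not tested.

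Signs turned only for uncalled differences. From P1 to P14 in cortex Pfkfb2 became 0.24 with TMM, 0.12 with quantile normalization, 0.18 with edgeR and 0.20 with DESeq2, Pfkfb3 became 0.0054 with TMM, and in hippocampus Pdk3 became 0.13 with quantile normalization. Leaving out 1 library gave -0.015 to 0.53 for Gbe1 in cortex, -0.34 to 0.52 for Slc16a1 and -0.31 to 0.098 for Pdk3 in hippocampus, and -0.22 to 0.22 for Slc16a7 in the olfactory bulb. Among pair ratios from P1 to P14 in the olfactory bulb, Ldhb/Ldha became 0.014 with a pseudocount of 8 and ranged from -0.14 to 0.20, and Pygm/Pygb ranged from -0.37 to 0.090 with 1 library left out. At P28 a pseudocount of 8 gave 0.0074 in hippocampus and -0.024 in the olfactory bulb for Hk2/Hk1, and the ranges with 1 library left out were -0.055 to 0.86, -1.09 to 0.37 and -0.17 to 0.34 over cortex, hippocampus and olfactory bulb. For Pfkp/Pfkm they were -0.22 to 0.14, -0.21 to 0.50 and -0.00096 to 0.39. In cortex they were -0.031 to 0.31 for Ldhb/Ldha and -0.098 to 0.15 for Pygm/Pygb. Where a group kept 1 library, it was assumed to vary like the other groups. Depth limits genes of a few normalized reads, such as Slc2a3, Eno2 and Slc16a7 at P14 and Pygm and Ppp1r3d at P1. The lowest depth of a developmental library was 1773226 reads, in the olfactory bulb at P14.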
